A study of Mus musculus with 2 samples.

Results

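The genes described here are the Notch receptors Notch1, Notch2 and Notch3, the ligands Dll1, Dll3 and Jag1, the nuclear effectors Hes1 and Hes5, and the Fringe enzymes Mfng and Lfng. They were taken by symbol from the 32285 genes of the deposited feature tables, and all 10 were found, each under 1 Ensembl identifier. Their unique molecular identifiers (UMIs, counts of captured RNA molecules) were summed per cell class in 2 single-cell RNA sequencing libraries of the embryonic day 14.5 mouse dorsal telencephalon, labelled replicate 2 and replicate 4. Both libraries carry the line name EomesDot and the genotype WT, no treatment was named, and the tissue label reads brain hemispheres. The labels do not say how EomesDot relates to the C57BL/6J embryos of the study's methods, nor whether a library is 1 embryo, so the spread between the libraries may be technical. The study asked through which ligands and receptors somatostatin-positive cortical interneurons signal to radial glial cells (RGCs) and intermediate progenitor cells (IPCs).

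Notch receptors are cleaved after they bind a Delta or Jagged ligand on a neighbouring cell, and the freed intracellular domain joins the DNA-binding protein Rbpj in the nucleus. Hes1 and Hes5 are classical targets of this complex and repress the proneural genes that drive neurogenesis. In the embryonic cortex the pathway is known for keeping RGCs undifferentiated while daughter cells that carry Delta ligands become neurons. Fringe enzymes add sugars to Notch that change how it responds to Delta and Jagged ligands. Dll3 is unusual among the ligands in acting mainly within the cell that makes it.

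On build GRCm38, the receptors lie at chr2:26457902-26503822 (Notch1), chr3:98013538-98150367 (Notch2) and chr17:32120820-32166896 (Notch3). The ligands lie at chr17:15367354-15376932 (Dll1), chr7:28293555-28301785 (Dll3) and chr2:137081451-137116520 (Jag1). Hes1 lies at chr16:30065357-30067796, Hes5 at chr4:154960626-154962372, Mfng at chr15:78755882-78773516 and Lfng at chr5:140607341-140615545. Promoter windows from 250 bases before to 50 bases after a transcript start were matched in RefSeq (GRCm38.p6) for 8 members, as 9 windows because Dll1 has 2. TGGGAA, the core letters of the Rbpj motif, or its reverse complement TTCCCA was found in 2 of these windows, those of Hes5 and Lfng. Of all 32851 windows of the same length, 25.6% held it, so the match is a description of the letters and not a binding site. Both windows are on the plus strand, at chr4:154960673-154960972 for Hes5 and chr5:140607091-140607390 for Lfng, and they are shown because both genes were highest in RGC-like cells among the 4 classes compared below. The capitals mark the motif, which occurs once on each strand in each window. Hes1 and Mfng had no window in the table used.
Hes5: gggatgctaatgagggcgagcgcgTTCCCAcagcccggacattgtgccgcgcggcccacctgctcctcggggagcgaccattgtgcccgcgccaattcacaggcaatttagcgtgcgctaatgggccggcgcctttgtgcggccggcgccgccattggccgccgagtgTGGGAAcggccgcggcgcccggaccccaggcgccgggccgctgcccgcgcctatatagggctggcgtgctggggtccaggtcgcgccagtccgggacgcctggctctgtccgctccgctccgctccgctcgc
Lfng: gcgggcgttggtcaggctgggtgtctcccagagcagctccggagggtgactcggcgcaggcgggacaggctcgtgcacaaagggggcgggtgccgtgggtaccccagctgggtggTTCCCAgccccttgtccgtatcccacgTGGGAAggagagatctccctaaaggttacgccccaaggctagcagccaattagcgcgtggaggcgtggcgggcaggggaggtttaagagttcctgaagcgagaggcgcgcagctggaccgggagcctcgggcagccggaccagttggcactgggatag

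After low-quality barcodes and predicted doublets were left out, 1199 cells in replicate 2 and 1923 in replicate 4 remained, with medians of 30810 and 22826 UMIs per cell. Cell classes were rebuilt by clustering without the 10 members and named from marker genes, because no cell annotation was given. RGC-like cells numbered 257 and 431, IPC-like cells 121 and 165, and excitatory neuron-like cells 421 and 585. Cells of 2 clusters in which 7 of 8 IPC and 11 of 13 excitatory neuron markers were raised numbered 163 and 327 and were kept as a mixed class. The IPC-like class itself held 2 clusters. In the first, 8 of 8 IPC, 8 of 11 RGC and 3 of 13 excitatory neuron markers were raised, and in the second (31 and 65 cells) 7 of 8 IPC, 5 of 11 RGC and 7 of 13 excitatory neuron markers. Interneuron-like cells of the medial ganglionic eminence (MGE) numbered 54 and 82, with median depths of 23450.5 and 10737 UMIs. All 11 RGC markers were raised in each of the 4 RGC-like clusters, and 1 of these clusters also had 5 of 8 IPC markers, 1 of 10 hem or choroid plexus markers and 1 of 7 meningeal markers raised. Its leading gene was Ttr, a choroid plexus gene, and no IPC marker was among its 10 leading genes. Of the cell barcodes, 3 were shared between the libraries, 1 of them among the kept cells. Levels are given as CPM, the UMIs of a gene divided by all UMIs of the class and scaled as is usual for this unit, and they are not compared between genes.

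Notch1 was highest in RGC-like cells among the neural classes, lower in IPC-like cells and lower again in excitatory and MGE interneuron-like cells. It measured 163 CPM in RGC-like cells of both libraries, 85.6 and 82.2 CPM in IPC-like cells, and 17.9 and 18.1 CPM in the mixed class. In excitatory neuron-like cells it was at 1.10 and 0.771 CPM, and MGE interneuron-like cells held a single Notch1 UMI in all. RGC-like cells, 21.4% and 22.4% of the kept cells, carried 70.3% and 69.5% of all Notch1 UMIs. Outside the neural classes, endothelial-like cells (98.7 and 120 CPM) and mural-like cells (96.6 and 177 CPM) also carried Notch1.

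Notch2 was more sharply divided between the progenitors. Its level was 279.7 and 254 CPM in RGC-like cells against 18.2 and 33.8 CPM in IPC-like cells. Excitatory neuron-like cells had 8.62 and 6.75 CPM. Cells like the cortical hem or choroid plexus, a signalling centre and secretory tissue at the cortical edge, stood above the RGC-like cells in both libraries, at 494 and 526 CPM.

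Notch3, a receptor best known from mural cells of blood vessels, was highest in mural-like cells (326 and 186 CPM from 3 and 10 cells). RGC-like cells followed at 60.2 and 56.1 CPM, above IPC-like cells at 12.5 and 19.5 CPM and excitatory neuron-like cells at 1.56 and 1.93 CPM. In these 3 neural classes the libraries lay closer together than the classes did.

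Dll1 had the opposite order between the progenitors. IPC-like cells had 51.3 and 53.8 CPM, the mixed class 22.9 and 23.3 CPM, RGC-like cells 19.6 and 10.8 CPM, and excitatory neuron-like cells 6.93 and 6.36 CPM. The mixed and RGC-like classes did not overlap but lay close together in replicate 2. MGE interneuron-like cells had 6.42 and 4.54 CPM, which cannot be separated from the excitatory neuron-like level by these libraries. GABAergic cells that were given no sub-class had 30.4 and 36.1 CPM. They numbered 24 and 78 cells, and their sub-clusters were split unequally between the libraries (8 and 49, 16 and 3, and 0 and 26 cells). The first of these sub-clusters was dividing. Its mean level was 56.6 CPM for Dll1, 57.5 CPM for Dll3, 122.6 CPM for Notch1 and 72.2 CPM for Mfng.

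Dll3 was lowest in RGC-like cells among the classes of the excitatory lineage. It measured 0.456 and 2.45 CPM in RGC-like cells, 24.7 and 32.1 CPM in IPC-like cells, 27.3 and 33.8 CPM in the mixed class, and 8.49 and 8.23 CPM in excitatory neuron-like cells. IPC-like and mixed cells overlapped. Jag1 was low in every class of this lineage, with RGC-like cells at 11.5 and 7.80 CPM, IPC-like cells at 6.52 and 4.44 CPM and excitatory neurons at 3.56 and 4.50 CPM. Its higher levels were in endothelial-like cells (78.3 and 89.5 CPM), mural-like cells (84.5 and 43.6 CPM) and meningeal-like cells (47.5 and 100.6 CPM).

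The Fringe genes went in opposite directions. Mfng was at 178.7 and 167 CPM in IPC-like cells, 106 and 104 CPM in the mixed class and 11.9 and 19.9 CPM in RGC-like cells. Excitatory neuron-like cells had 8.36 and 7.84 CPM and endothelial-like cells 136 and 113 CPM. Lfng was at 17.9 and 14.2 CPM in RGC-like cells, whereas only 3 Lfng UMIs were counted in all IPC-like cells and none in MGE interneuron-like cells.

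Hes1 was at 112 and 84.3 CPM in RGC-like cells and at 2.17 and 1.48 CPM in IPC-like cells. Excitatory neuron-like cells had 0.713 and 1.99 CPM. Meningeal-like (132 and 80.5 CPM), endothelial-like (71.5 and 113 CPM) and mural-like cells (133 and 90.2 CPM) also carried it, and their values overlapped those of the RGC-like cells. Hes5 was at 86.6 and 52.6 CPM in RGC-like cells and at 5.70 and 15.6 CPM in IPC-like cells. Unlike Hes1, it had no UMI in meningeal-like, endothelial-like or mural-like cells, and neither gene had a UMI in microglia-like or Cajal-Retzius-like cells. In replicate 4, 1 IPC-like cell held 28 of the 63 Hes5 UMIs of its class. RGC-like cells carried 80.5% and 78.0% of all Hes1 UMIs and 92.7% and 84.5% of all Hes5 UMIs.

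**Figure D1:**
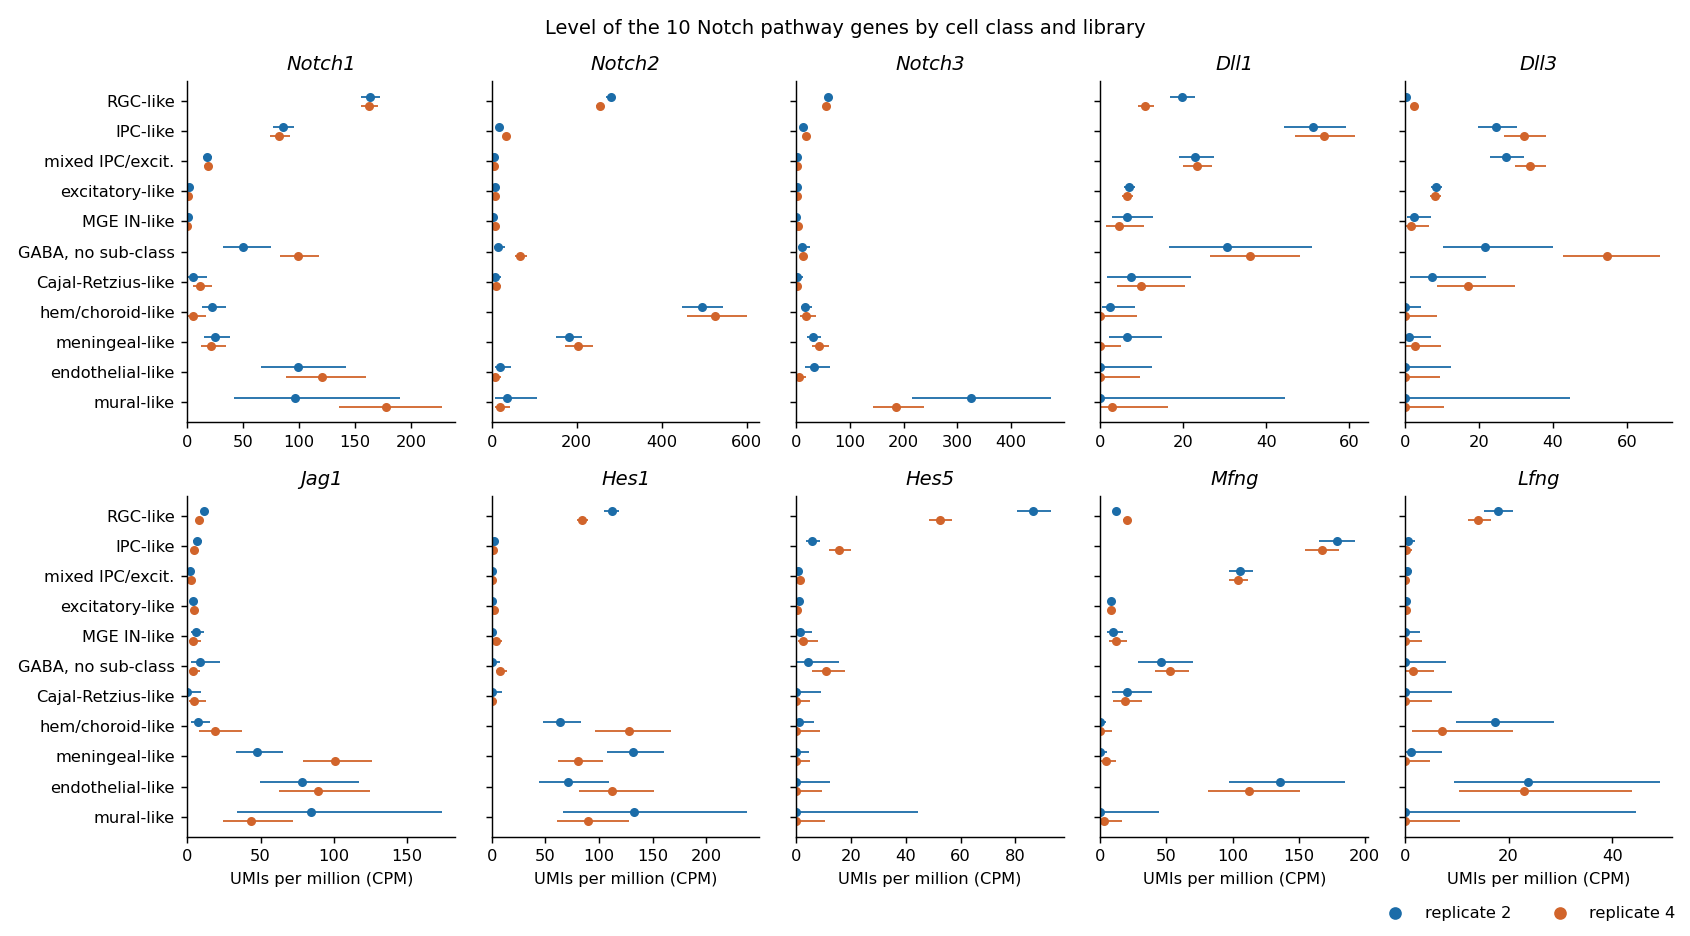
Level of each of the 10 genes in 11 cell classes, in CPM on a linear axis. Each point is 1 library and its bar the exact 95% Poisson interval of the UMI sum, which covers counting error only. Notch1, at 163 CPM in RGC-like cells of both libraries, falls towards neurons, and Mfng and Dll1 are higher in IPC-like than in RGC-like cells.

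The classes were then compared by edgeR's quasi-likelihood test on the UMI sums of 8 classes in both libraries, over 14204 genes, with Benjamini-Hochberg adjustment and a threshold of 0.05. Between RGC-like and IPC-like cells, 6 of the 10 members were higher in RGC-like cells, 3 were lower and 1 (Jag1) did not pass. Of all genes tested, 12.8% were higher and 11.7% lower. The median log2 fold change was 1.33 over the members and 0.03 over all genes. Hem or choroid plexus markers summed to 649 and 289 CPM in RGC-like cells, with all 10 markers present, and to 23.4 and 13.3 CPM in IPC-like cells, where Kcne2 and Bmp4 were at 0 in both libraries. Notch2 was at 230.4 to 320 CPM in replicate 2 and 228 to 290.3 CPM in replicate 4 in the 3 RGC-like clusters with none of these markers raised. Their part in the other member differences was not tested. The receptors were higher in RGC-like cells by a log2 fold change of 0.88 ± 0.21 for Notch1 (standard error, adjusted p = 0.0078), 3.27 ± 0.36 for Notch2 (adjusted p = 2.93e-05) and 1.77 ± 0.24 for Notch3 (adjusted p = 0.000151). With coarser clustering the Notch1 difference was 0.60 and no longer passed (adjusted p = 0.0618). Hes1 was higher by 5.66 ± 0.55 (adjusted p = 1.73e-05) and Hes5 by 2.61 ± 0.39 (adjusted p = 0.00063). Lfng was also called (adjusted p = 0.000214). Because it rests on 3 UMIs in IPC-like cells, its size is given as a pooled ratio of 40.8, with a 95% counting interval from 13.8 to 199. Dll1 was lower in RGC-like cells by a log2 fold change of -1.88 ± 0.28 (adjusted p = 0.000298), Dll3 by -4.25 ± 0.45 (adjusted p = 1.94e-05) and Mfng by -3.51 ± 0.25 (adjusted p = 8.49e-07). Jag1 gave 0.73 ± 0.42 (adjusted p = 0.229), and it passed under 5 alternative settings, with values from 1.23 to 3.24.

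From IPC-like to excitatory neuron-like cells, 7 members were lower in the neurons, none was higher and 3 did not pass. The background of this comparison was 19.3% of genes higher in IPC-like cells and 23.6% lower, and the median was 2.18 over the members beside -0.04 over all genes. Notch1 had the widest difference of the members, with a log2 fold change of 6.26 ± 0.30 (edgeR, adjusted p = 1.72e-08), followed by Mfng at 4.22 ± 0.25 (adjusted p = 9.12e-08). Hes5 was higher in IPC-like cells by 3.62 ± 0.54 (adjusted p = 0.000229) and Dll1 by 2.79 ± 0.29 (adjusted p = 5.23e-06). Dll3 and Notch2 both gave 1.57 (standard errors 0.36 and 0.37, adjusted p = 0.00298 and 0.00404), and each lost its call under 2 alternative settings, with adjusted p up to 0.142 for Dll3 and 0.0933 for Notch2. Hes1 (0.22 ± 0.79), Jag1 (0.24 ± 0.43) and Lfng (0.74 ± 1.05) did not pass. With cells of at least 500 genes, Jag1 turned to -1.99 and passed as higher in the neurons (adjusted p = 0.0473), while 12 of its 13 alternatives left it without a call. Of the effectors, only Hes5 thus passed in the main setting. Hes1 passed as higher in IPC-like cells under 2 of 13 alternatives, with values from -0.22 to 2.40 over the settings. Lfng passed as higher there under 1 of 11. Whether Hes1 and Hes5 differ in this respect was not tested.

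Directly between RGC-like and excitatory neuron-like cells, 9 members were higher and 1 (Dll3) lower in RGC-like cells, against a background of 25.2% and 28.9% of genes (median 4.80 beside -0.06). Notch1 differed by 7.14 ± 0.30, Hes5 by 6.23 ± 0.47, Lfng by 5.94 ± 0.58 and Hes1 by 5.88 ± 0.48 on the log2 scale. The calls of Mfng (0.71 ± 0.24, adjusted p = 0.0248) and Dll1 (0.90 ± 0.29, adjusted p = 0.0163) were not stable. Mfng was lower instead of higher under 7 alternative settings, down to -1.76 (adjusted p = 0.000515), and 3 of these passed in the opposite direction, and Dll1 lost its call under 5 and changed sign under 1.

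**Figure D2:**
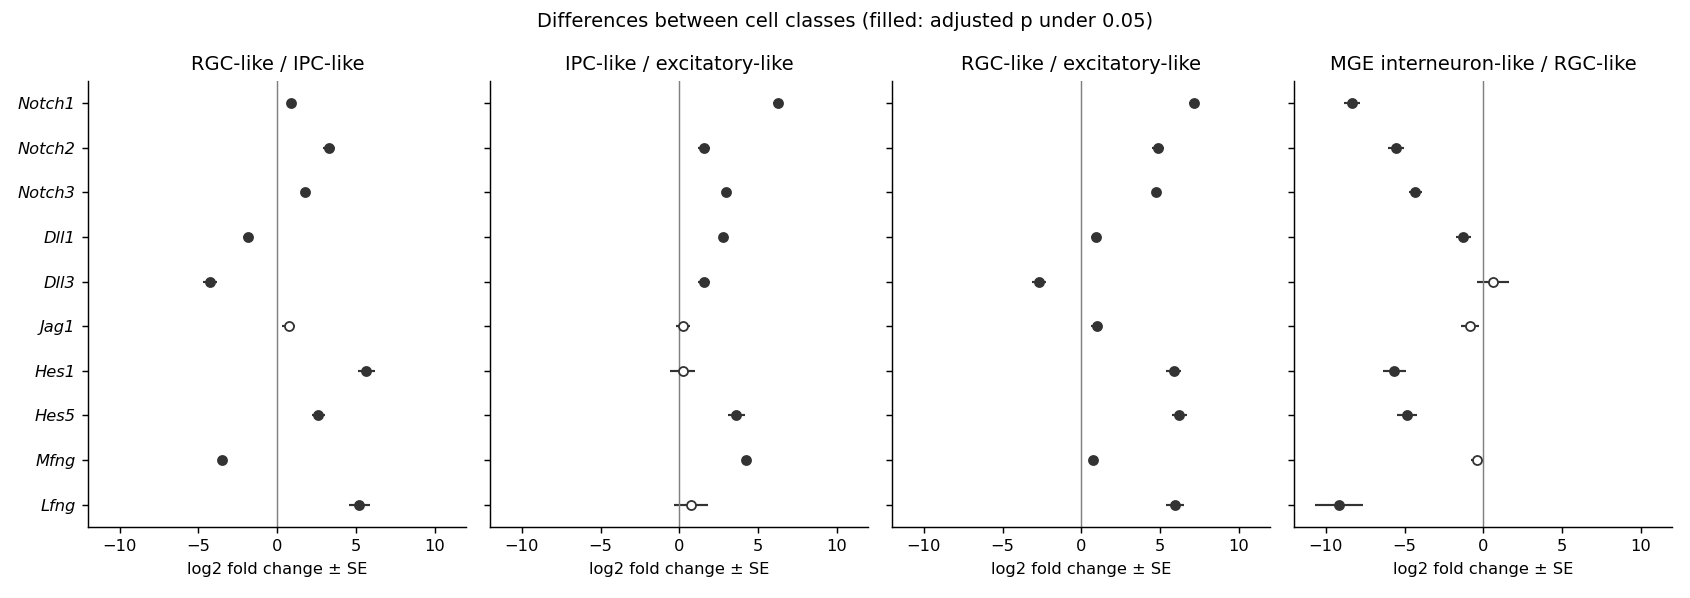
Log2 fold change of each of the 10 genes in the class comparisons, with bars of 1 standard error; filled points had an adjusted p under 0.05. Receptors, Hes genes and Lfng lie on the RGC-like side of the RGC-like against IPC-like comparison, and Dll1, Dll3 and Mfng on the IPC-like side (log2 fold changes of -1.88, -4.25 and -3.51).

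The MGE, where somatostatin-positive interneurons arise, gave the class nearest to the study's sender cells. Compared with RGC-like cells, none of the 10 members was higher in this class, 7 were lower and 3 did not pass, against a background of 24.4% of genes higher and 25.4% lower (median -4.59 beside -0.05). The receptors Notch2 (2.41 and 8.18 CPM, log2 fold change -5.53 ± 0.52, edgeR adjusted p = 1.94e-06) and Notch3 (0.803 and 4.54 CPM, -4.33 ± 0.42) were lower. Notch1, from 1 UMI, was lower by a pooled ratio of 382 with a counting interval from 68.6 to 15102. Hes1 fell by 5.66 ± 0.73 (adjusted p = 4.48e-05) and Hes5 by 4.84 ± 0.66 (adjusted p = 0.000101). Lfng, with no UMI, was at least 12.4-fold lower at a floor of 3 counts over the class. Of the ligands, Jag1 (5.62 and 3.63 CPM, -0.87 ± 0.58, adjusted p = 0.233) and Dll3 (2.41 and 1.82 CPM, 0.61 ± 1.04, adjusted p = 0.654) could not be separated from RGC-like cells. Dll1 was lower by -1.28 ± 0.48 (adjusted p = 0.042), a call lost under 7 alternative settings. None of the 3 ligands passed the test as higher in the interneuron-like class.

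Of the 42 other genes of the pathway, 40 were tested between the classes. Between RGC-like and IPC-like cells, 7 were higher and 11 lower in RGC-like cells, and their median log2 fold change was -0.23, beside 0.03 over all genes, of which 12.8% were higher and 11.7% lower. The 11 include Neurog1, Neurog2 and Insm1, which served to name the IPC-like class. Other effector genes split: Nrarp, a feedback inhibitor of Notch, was at 42.7 and 42.3 CPM in RGC-like against 16.3 and 23.5 CPM in IPC-like cells (1.01 ± 0.33), and Hey1, a relative of the Hes repressors, at 24.4 and 30.1 against 9.24 and 10.4 CPM (1.39 ± 0.27). Hes6, which opposes Hes1, was higher in IPC-like cells, at 303 and 309 against 64.6 and 72.9 CPM (-2.23 ± 0.31). Rbpj itself was higher in IPC-like cells (284 and 296 CPM) than in RGC-like cells (180 and 168 CPM), with a log2 fold change of -0.82 ± 0.16 (edgeR, adjusted p = 0.00237). Its coactivator Maml2 had the reverse order, at 552 and 512 CPM in RGC-like against 173 and 200 CPM in IPC-like cells (1.43 ± 0.15).

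Among the antagonists, Numbl, a relative of the Notch inhibitor Numb, was lower in RGC-like cells (13.6 and 13.3 against 60.3 and 67.2 CPM, -2.32 ± 0.19), and the Deltex gene Dtx4 was higher (19.2 and 18.7 against 0.815 and 1.23 CPM, 4.08 ± 0.44). Of the 7 receptor cleavage genes only the gamma-secretase subunit Ncstn passed, at 24.9 and 23.0 CPM in RGC-like against 53.8 and 48.4 CPM in IPC-like cells (-1.17 ± 0.15). Mib1, which drives ligand endocytosis, was the 1 of 7 endocytosis and glycosylation genes that passed (151 and 162 against 189 and 197 CPM, -0.38 ± 0.13, adjusted p = 0.049). In the proneural list, Neurog1, Neurog2 and Insm1 were lower in RGC-like cells, but these also served to name the IPC-like class and are no separate result.

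From IPC-like to excitatory neuron-like cells, 17 of the 40 genes were higher in IPC-like cells and 10 lower, with a median of 0.21 beside -0.04 over all genes (19.3% higher and 23.6% lower). The 17 include all 4 proneural genes, of which Neurog1, Neurog2 and Insm1 served to name the IPC-like class. Of the nuclear complex, 5 of 6 genes were higher in IPC-like cells and none lower. Rbpj fell to 118 and 122 CPM in the neurons (1.08 ± 0.16) and Maml2 to 70.4 and 65.0 CPM (1.27 ± 0.15). Nrarp fell to 1.30 and 1.16 CPM (3.80 ± 0.43). Dtx1 went the other way, from 5.43 CPM in both libraries to 35.4 and 37.2 CPM, as did Dner, a noncanonical ligand, from 31.0 and 34.1 to 166 and 242 CPM. Between RGC-like and excitatory neuron-like cells 14 were higher and 11 lower in RGC-like cells (median 0.24 beside -0.06). The background of 25.2% higher and 28.9% lower makes the lower count no result about the pathway.

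In MGE interneuron-like cells, 10 of the 40 genes were higher and 13 lower than in RGC-like cells (median -0.34 beside -0.05). Over all genes 24.4% were higher and 25.4% lower, so the share of pathway genes higher in this class is close to the background. Those higher included the noncanonical ligand Dner (287 and 324 against 20.4 and 19.4 CPM, 4.10 ± 0.56), the ligand Jag2 (7.23 and 12.7 against 1.03 and 1.49 CPM, 3.09 ± 0.64) and Dtx1 (24.1 and 32.7 against 2.28 CPM in both libraries, 3.78 ± 0.29). Those lower included Maml2 (24.1 and 28.2 CPM, -4.19 ± 0.19), Nrarp on 3 UMIs (pooled ratio 33.2, interval 11.3 to 161) and Hey1 on 1 UMI (64.8, interval 11.6 to 2563).

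To compare cells that carry ligand RNA with cells that carry receptor RNA, each cell was thinned to 5000 UMIs and shallower cells were left out, which removed 12 and 22 RGC-like cells, 3 and 6 IPC-like cells, 5 and 17 excitatory neurons and 1 and 8 MGE interneurons. Notch1 was then seen in 57.1% and 54.5% of RGC-like cells (92.6% and 90.7% before thinning), 22.9% and 28.9% of IPC-like cells and 0.48% and 0.35% of excitatory neuron-like cells. Dll1 was seen in 10.6% and 6.36% of RGC-like cells, 17.8% and 27.0% of IPC-like cells, 3.12% and 3.35% of excitatory neuron-like cells and 5.66% and 2.70% of MGE interneuron-like cells. Before thinning the Dll1 shares were 21.0% and 16.5% in RGC-like cells, 59.5% and 62.4% in IPC-like cells and 20% and 14.2% in excitatory neurons. A share at the level of the excitatory neurons can come from free RNA. The RGC-like and IPC-like shares of Dll1 lay above that level after thinning, but before thinning the RGC-like shares lay close to it. How many RGC-like cells with a Dll1 UMI held free RNA was not tested. Median depths before thinning were 32402 and 25870 UMIs (RGC-like), 29495 and 23299 (IPC-like) and 35558 and 25631 (excitatory).

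Any of the 3 receptors was seen in 91.0% and 86.1% of RGC-like cells and any of the 3 ligands in 18.0% and 9.29%. In replicate 4 that ligand share (exact binomial 95% interval 6.66% to 12.5%) was not distinguishable from the 8.98% of excitatory neurons. Most RGC-like cells had a receptor and no ligand (75.5% and 78.5%), and few had a ligand alone (2.45% and 1.71%). In IPC-like cells the receptor share (30.5% and 39.6%) and the ligand share (28.8% and 41.5%) were close. Cells with both made up 6.78% and 21.4% of IPC-like cells, and the libraries differed here. Ligand alone was seen in 22.0% and 20.1% of IPC-like cells, above the RGC-like share in both libraries. In excitatory neuron-like cells 3.61% and 5.28% had a receptor, 8.89% and 8.98% a ligand, and 0.24% and 0.53% both. MGE interneuron-like cells had a receptor in none and in 5.41% of cells, and a ligand in 9.43% and 2.70%. These shares depend on the depth to which cells were thinned.

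**Figure D3:**
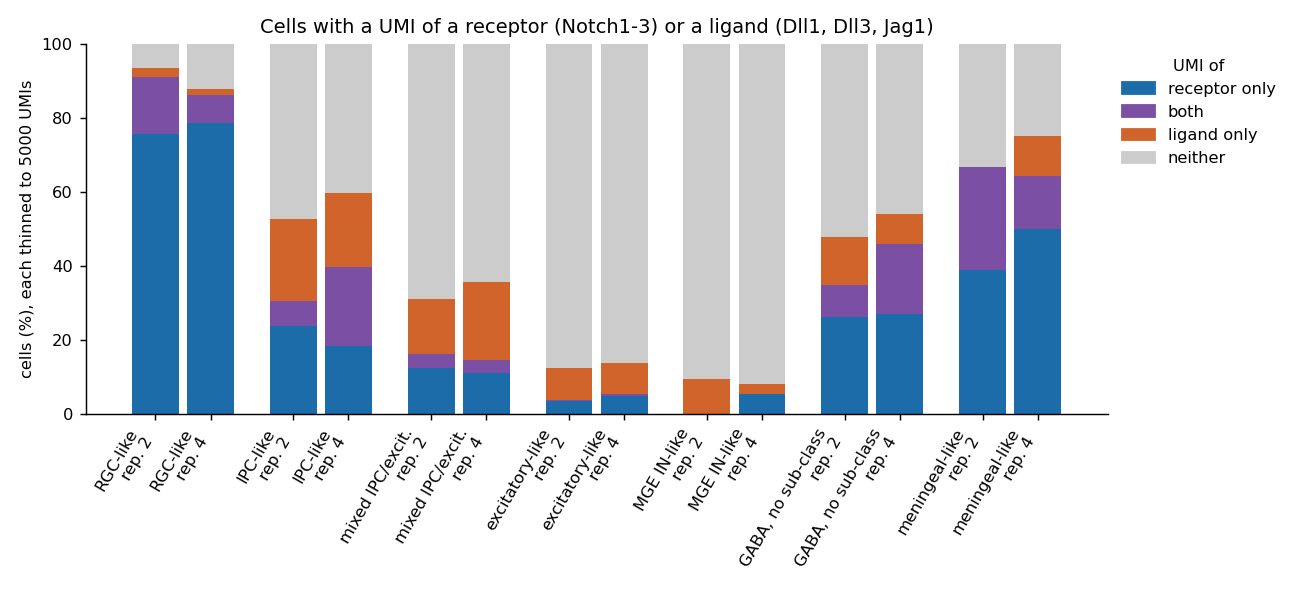
Percent of cells, thinned to 5000 UMIs, with a UMI of any receptor (Notch1, Notch2, Notch3) only, of any ligand (Dll1, Dll3, Jag1) only, of both or of neither, with 1 stacked bar per class and library. Receptor only fills 75.5% and 78.5% of RGC-like cells, and ligand only reaches 22.0% and 20.1% in IPC-like cells.

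Cell cycle phases were inferred per cell from the expression of phase genes and are read as a description. In RGC-like cells Dll1 was at 59.7 and 33.9 CPM in cells scored G1, 1.6 and 6.4 CPM in S and 9.4 and 4.7 CPM in G2M. Mfng had the same order between G1 and the other phases, at 34.5 and 66.4, 3.8 and 13.5, and 4.1 and 5.8 CPM. Hes1 stayed between 78.4 and 124 CPM in all phases of both libraries. In IPC-like cells Notch1 was at 95.2 and 102 CPM in G1, 100 and 86.5 CPM in S and 50.5 and 50.3 CPM in G2M. The low Notch1 value in G2M was seen in both libraries, and RGC-like cells did not show it (154 and 176 CPM in G2M).

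**Figure D4:**
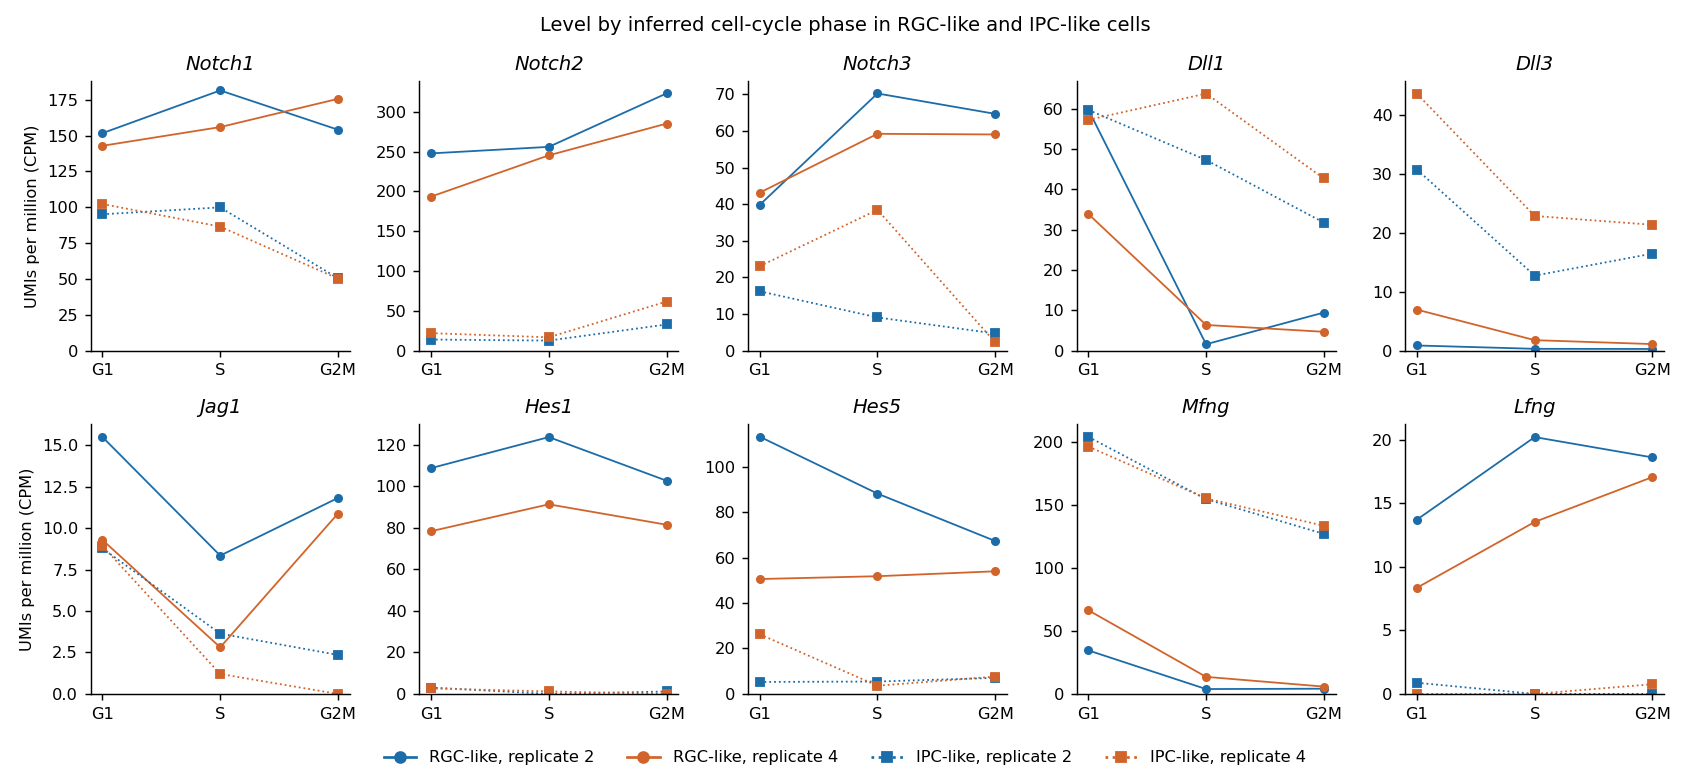
CPM of the 10 genes in cells scored G1, S or G2M, for RGC-like (solid lines, circles) and IPC-like cells (dotted lines, squares), with 1 line per library. Dll1 in RGC-like cells peaks in G1, at 59.7 and 33.9 CPM.

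RGC-like cells also differed among their clusters. The mean Dll1 level over both libraries ran from 4.3 to 41.4 CPM and that of Mfng from 3.4 to 48.7 CPM, and the cluster led by Ttr, with 5 of 8 IPC markers raised, was highest for both. In the IPC-like clusters Dll1 was at 59.7 and 39.1 CPM and Mfng at 194.5 and 134.5 CPM.

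Cells with Dll1 RNA were then compared with cells of their class that had receptor RNA and no Dll1 UMI. After thinning to 5000 UMIs, a cell was Dll1-positive with at least 1 Dll1 UMI, and Dll1-negative with none and at least 1 UMI of Notch1, Notch2 or Notch3. Dll1 and the receptors set the groups and are no result of this comparison. The thinning was a separate random draw, so the cell numbers that follow differ from the shares given above. Cells with neither, 21 and 47 RGC-like and 60 and 71 IPC-like cells, were left out. There were 21 and 21 positive and 203 and 341 negative RGC-like cells, and 28 and 36 positive and 30 and 52 negative IPC-like cells. Their unthinned UMIs were summed per group and library and 9820 genes were tested. Mfng and Hes1 were the 2 members that passed in RGC-like cells, out of 6 tested (median -0.47 beside 0.01), against 3.09% of genes higher and 2.82% lower. Mfng was at 73.8 and 111 CPM in Dll1-positive against 6.09 and 13.9 CPM in Dll1-negative RGC-like cells, a log2 fold change of 3.19 ± 0.38 (edgeR, adjusted p = 0.00338). Hes1 was at 24.6 and 32.5 against 116 and 87.0 CPM, and fell by 1.81 ± 0.33 (adjusted p = 0.02). The groups did not overlap for either gene. The Hes1 call was lost under 4 of 16 alternatives (adjusted p up to 0.313) and that of Mfng under 1 (0.27).

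Hes5 was at 29.2 and 39.4 CPM in Dll1-positive and 86.0 and 54.6 CPM in Dll1-negative RGC-like cells, but did not pass (-1.02 ± 0.47, adjusted p = 0.249). Under 1 of 16 alternatives it passed as lower in Dll1-positive cells. When Dll1 status was read from 1 part of each cell's UMIs and levels from the other, Hes5 was higher in Dll1-positive cells (145 and 89.3 against 69.6 and 52.0 CPM), so its direction is not settled. Hes1 (51.6 and 15.8 against 104 and 84.7 CPM) and Mfng (62.0 and 94.6 against 6.37 and 15.5 CPM) kept theirs. Lfng (-0.77 ± 0.50), Dll3 (1.63 ± 1.51) and Jag1 (-0.17 ± 0.78) did not pass.

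Of the 29 other pathway genes tested, 8 were higher and none lower in Dll1-positive RGC-like cells, with a median log2 fold change of 0.25 beside 0.01 over all genes, of which 3.09% were higher and 2.82% lower. At a mitochondrial limit of 5% the whole contrast called 4 genes, and with any ligand 45. Those reported here include the proneural factors Neurog2 (483 and 503 against 102 and 92.1 CPM, 2.38 ± 0.19, adjusted p = 0.000441) and Insm1 (160.0 and 116 against 29.5 and 31.2 CPM, 2.24 ± 0.26), and Hes6 (253.8 and 311 against 41.1 and 58.6 CPM, 2.53 ± 0.22, adjusted p = 0.00054). They also include Mib1 (237 and 239 against 145.5 and 155.5 CPM, 0.70 ± 0.13), Rbpj (265 and 322 against 173.5 and 159.5 CPM, 0.85 ± 0.15) and Maml3 (521 and 471 against 248 and 283 CPM, 0.95 ± 0.20). Of 16 alternatives, Mib1 lost its call under 7, Rbpj under 6, Maml3 under 3, Insm1 under 2, and Neurog2 and Hes6 under none. Neurog2 and Insm1 belong to the 8 IPC markers summed below, so their values and that sum are not separate results.

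These groups also differed in makeup. Cells scored G1 made up 76.2% of the positive RGC-like cells in both libraries and 26.6% and 18.2% of the negative ones. The RGC-like cluster led by Ttr, with 5 of 8 IPC markers raised, held 47.6% and 52.4% of the positive against 14.8% and 15.2% of the negative cells. All 8 IPC markers had UMIs in each group, and they summed to 1804 and 1882 CPM in positive against 263 and 286 CPM in negative cells. All 11 RGC markers also had UMIs, summing to 4427 and 3793 against 5942 and 5228 CPM. Hem or choroid plexus markers summed to 18.5 and 20.9 against 751 and 281 CPM, with Wnt3a, Rspo2, Lmx1a, Kcne2, Bmp6 and Bmp4 at 0 in the positive cells of both libraries. The part of phase and makeup in the Mfng, Hes1 and pathway differences was not tested.

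Over all genes, the largest differences with the same sign in both libraries often rested on few cells. The transcription factor gene St18 (66.1 and 104 against 4.84 and 3.66 CPM, 4.33 ± 0.31, adjusted p = 0.000259) had UMIs in 4 positive cells of each library, and the corepressor gene Cbfa2t3 (35.4 and 39.4 against 1.66 and 2.20 CPM, 4.25 ± 0.28, adjusted p = 0.000184) in 7 and 6. For Adam2 all UMIs of the positive cells came from 1 cell in each library. Eya2 had 5 and 53 UMIs, 34 of them in 1 cell, and Ebf2 had 23 and 1 UMIs. The 5 genes with the largest decrease, Rspo2, Sulf1, Hist1h1a, Pebp4 and Ska1, had no UMI in the positive cells. At a floor of 3 counts over the group, the histone gene Hist1h1a was at least 26.5-fold lower and the mitotic gene Ska1 at least 11.8-fold lower in the sums. No fold is given for the others because few negative cells carried them. Rspo2 had UMIs in 13 of 203 and 11 of 341 negative cells (440 and 317 UMIs in 1 cell), Sulf1 in 12 and 13 and Pebp4 in 27 and 39. Hist1h1a had UMIs in 80 and 130 and Ska1 in 87 and 137 negative cells.

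In IPC-like cells the groups were less separated for Dll1 itself. Dll1 was at 132 and 106 CPM in positive and 29.3 and 45.5 CPM in negative IPC-like cells, against 152 and 118 and 7.19 and 6.18 CPM in RGC-like cells. No gene passed between the IPC-like groups, so 0% were higher and 0% lower. By edgeR 451 of the 9820 genes had an unadjusted p under 0.05, and DESeq2 called none and had 215. Mfng was at 173 and 161 CPM in positive and 153 and 180.4 CPM in negative cells (0.00 ± 0.32). The groups overlapped there. Hes5 gave 1.62 ± 0.67, Hes1 1.59 ± 1.14, Jag1 1.41 (standard error 1) and Dll3 -0.10 ± 0.65 in IPC-like cells, none of them past the threshold. The Hes1 value rests on 3 and 2 UMIs in positive and 2 and 0 UMIs in negative cells. The 1 cell with 28 Hes5 UMIs held most of the 33 Hes5 UMIs of the positive IPC-like cells of replicate 4.

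The difference between the RGC-like and IPC-like contrasts was tested as an interaction, in which 0.764% of genes were higher and 0.0713% lower. It compares contrasts that separate Dll1 unequally, and the part of this in the differences was not tested. Mfng was the 1 member called, with a difference of 3.19 ± 0.49 (edgeR, adjusted p = 0.025). It lost the call under 2 alternatives, the mitochondrial limit of 5% and any ligand. Over all genes 82 were called, and 140 with the library as block. Hes1 (-3.41 ± 1.19, adjusted p = 0.243) and Hes5 (-2.64 ± 0.82, adjusted p = 0.202) did not pass. The Hes1 difference rests on the few IPC-like UMIs given above. Hes5 passed with the same sign under 1 of 16 alternatives. Of the 29 other pathway genes 3 were called, all higher in the RGC-like contrast, among them Hes6 and Neurog2. Hes6 lost its call under the same 2 alternatives and Neurog2 with any ligand. At the 5% limit 3 genes were called over the whole table and with any ligand 6. The 5 genes called with the largest positive difference were Cdkn1c (4.58 ± 0.82), Cbfa2t3 (4.34 ± 0.32), St18 (4.29 ± 0.39), Rbfox3 (4.23 ± 0.51) and Disp3 (4.14 ± 0.48). Those with the largest negative difference were Lrp1b (-2.59 ± 0.46), Csmd1 (-2.30 ± 0.36), Tcf7l2 (-2.20 ± 0.35), Myo1e (-1.93 ± 0.35) and Phgdh (-1.52 ± 0.25). Some of these also rested on few cells. Cdkn1c had UMIs in 3 and 7 positive RGC-like cells, with 44 of 86 UMIs of replicate 2 in 1 cell, and 79 of 163 UMIs of the negative RGC-like cells of replicate 4 in 1 cell. Lrp1b had UMIs in 4 positive RGC-like cells of each library, and 1 negative cell held 815.

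**Figure D5:**
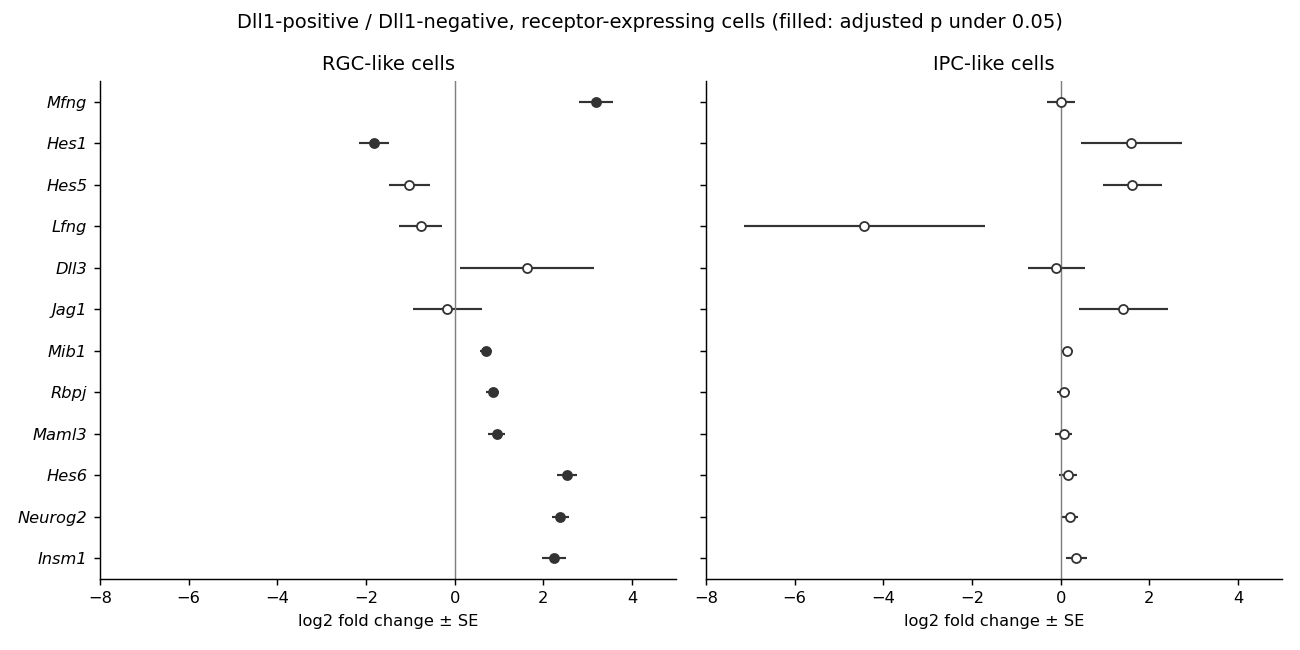
Log2 fold change between Dll1-positive and Dll1-negative cells, with bars of 1 standard error, for the 6 tested members and 6 of the pathway genes called in RGC-like cells, in RGC-like (left) and IPC-like cells (right); filled points had an adjusted p under 0.05. Mfng is at 3.19 in RGC-like cells and at 0.00 in IPC-like cells, where the Lfng point rests on 2 UMIs and is not read.

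As a description, the genes whose log2 level followed Notch1 most closely over the 16 class and library sums were H2afz (Pearson r = 0.98), Mcm7 (0.97) and Hmgb2 (0.97), out of 7601 genes. For Dll1 they were Numa1 (0.93), Pbrm1 (0.92) and Zmym5 (0.92). Hes1 was followed by Gulp1 (0.95), Notch2 (0.95) and Megf10 (0.94), and Hes5 by Pcgf5 (0.95), Aldoc (0.93) and Rfx4 (0.93). The sums share libraries and cells' depth, so no p is given.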

How the data were processed

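The authors deposited UMI counts per gene and cell barcode of 2 WT libraries (10x Genomics 3′ chemistry). The submitters' processing notes name Cell Ranger 7.0.0 and build mm10, and whether intronic reads were counted is not given in the sources used here. Totals were 40267872 UMIs over 1712 barcodes (replicate 2) and 49422007 over 2589 (replicate 4).

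From these counts, barcodes with under 1000 genes or over 10% mitochondrial UMIs were left out, as were doublets predicted by Scrublet (0.991% and 2.44%). Counts were scaled, log-transformed and clustered with scanpy 1.11.5 (2000 variable genes without the 10 members and most pathway genes, 30 components, 20 neighbours, Leiden resolution 1), and clusters were named from marker lists. Class names are rebuilt and may differ from those of the study. Sums per library and class or Dll1 group, for classes with at least 10 cells per library, were tested with edgeR 4.0.16 (TMM, low-count filter, quasi-likelihood test, Benjamini-Hochberg adjustment). Standard errors are the fold change over the root of F. Intervals and floors cover counting error only. The scripts were tested on simulated data.

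The members and lists were chosen with earlier results of these data known. Text names all members, called or example genes of the pathway lists, up to 5 called genes per direction in the Dll1 contrasts and the 3 genes most like Notch1, Dll1, Hes1 and Hes5. Some genes of the lists are counted but not reported here. Replicate numbers come from the labels and name the library that gave every class. Deviations of same-numbered sums correlated with a median of 0.0864 over 28 class pairs (-0.00993 to 0.288) and of 0.211 over 6 Dll1 group pairs (0.0795 to 0.256). A fit with the library as block was an alternative, as were other filters, normalizations (DESeq2 1.42.0), cluster resolutions, Dll1 definitions and leaving out a library.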

Additional observations from a re-analysis of the deposited data

Results flagged for a closer look

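The Dll1 contrast differed between RGC-like and IPC-like cells for genes of the lists, by the interaction test of edgeR with adjustment over all genes. The differences on the log2 scale were 3.19 for Mfng, 2.37 for Hes6 (adjusted p = 0.00812) and 2.18 for Neurog2 (adjusted p = 0.00683), each higher in the RGC-like contrast. With any ligand in place of Dll1 all 3 calls were lost, and at a mitochondrial limit of 5% those of Mfng and Hes6. Dll1-negative cells still held Dll1 at 29.3 and 45.5 CPM in the IPC-like class but at 7.19 and 6.18 CPM in the RGC-like class, so the contrasts separate Dll1 unequally.

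Receptor RNA was also present in barcodes that no comparison used. The 513 and 666 left-out barcodes, with medians of 965 and 1607.5 UMIs, held Notch2 at 126 and 104 CPM and Notch1 at 80.1 and 73.1 CPM. Of these barcodes, 442 and 423 had too few genes, 12 and 48 were predicted doublets and the others exceeded the mitochondrial limit. Their CPM come from summed UMIs, in which deeper barcodes weigh more, and the kinds of barcode were not separated. A cluster of 37 and 36 kept cells had medians of 5829 and 4044 UMIs. It stayed unnamed because it was this shallow and no RGC marker was among its 10 leading genes, although 10 of 11 RGC markers were raised. Notch2 was at 448 and 504 CPM and Notch1 at 249.9 and 239.6 CPM there, above the RGC-like class in both libraries. Dll3 had no UMI in this cluster.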

How the results depend on the processing

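The number of genes called between IPC-like and excitatory neuron-like cells fell from 6097 to 3630 when cells needed 500 genes, 3979 with classes from 1 part of the UMIs, 3829 with doublets kept and 4054 at Leiden resolution 2. Between Dll1 groups of RGC-like cells, 580 genes were called, against 1385 without the low-count filter, 248 with Dll1 status before thinning, 45 with any ligand, 180 at a minimum of 500 genes per cell, 4 at a mitochondrial limit of 5% (12 and 8 positive cells), 929 at resolution 2, 285 in thinned counts and 318 with thinning to 10000 UMIs. In IPC-like cells the count of 0 became 94 without the low-count filter and 1 each at the 5% limit, resolution 2 and thinning to 10000 UMIs. The 82 interaction calls became 717 without the filter, 6 with any ligand, 33 at the minimum of 500 genes, 3 at the 5% limit, 219 with DESeq2 and 273 at resolution 2. With the library as replicate block the interaction gave 140 calls, and the RGC-like Dll1 contrast 754. Among the named genes the block changed no call.

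Some directions turned. Mfng between RGC-like and excitatory neuron-like cells was -0.51 at the 500 gene minimum, -1.76 at the 5% limit, -0.64 with classes from 1 part of the UMIs, -0.46 with doublets kept, -0.54 with genes scaled within libraries, -0.52 at resolution 2 and -1.39 with mixed clusters counted as excitatory (chosen after seeing the data), of which -1.76, -0.64 and -1.39 passed (adjusted p = 0.000515, 0.0479 and 0.000805). Dll1 in the same comparison was -0.12 at the 5% limit. Jag1 between IPC-like and excitatory neuron-like cells was -1.99 at the 500 gene minimum (adjusted p = 0.0473), and Dlk1 between RGC-like and IPC-like cells 1.56 with genes scaled within libraries. The causes were not tested. Of the log2 fold changes recomputed, 2173 counted as unchanged, 68 moved, 148 lost the call, 11 gained it and 10 turned. Values without a call in either setting counted as unchanged whatever their sign. Values from 1 library counted as unchanged or moved by their distance from the main value, unless a called gene changed sign. DESeq2 size factors moved the median of all genes between RGC-like and excitatory neuron-like cells from -0.06 to 0.05. Leaving out a library leaves values with no test. Depth limits members with few UMIs, such as Lfng outside RGC-like cells.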
